A study of Mus musculus with 4 samples.

Results

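Imprinted genes, which are expressed mainly from either the maternal or the paternal copy, were examined by domain in captured DNA of cultured mouse satellite cells, the stem cells of skeletal muscle. A list of 40 imprinted genes was taken, and the gene bodies of mm10 RefSeq were extended by 2000 bp on both sides. Members under 200 kb apart were joined, which gave 20 domains. Of the 39231 regions that the authors listed as higher in oil than in tamoxifen, 69 lay over members. Another 17 lay between members of the same domain, so that 86 regions (0.219% of the list) are described. The rule for members names genes and uses no measured value, but the genes were chosen with earlier results of these data known.

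The study compared control and Uhrf1-deficient satellite cells of 9-week-old mice from hindlimb muscle, cultured for 3 days on Matrigel. Cre recombination was induced by intraperitoneal tamoxifen (150 µl of 20 mg/ml in corn oil on 5 consecutive days), and the control label is oil. The Cre line, the floxed interval and the genetic background are not given in the sources used here. Sheared DNA was separated with an MBD2-based kit into methylated and non-methylated fragments, giving 4 libraries in 4 groups of 1 sample. The list of regions compares an oil with a tamoxifen alignment, and the file header does not name the DNA fraction. It is read here as the methylated fraction. After duplicate removal 19534328 tags were left in oil and 25614791 in tamoxifen. With 1 library per treatment there is no replicate and no test between treatments, and limits printed beside folds cover counting error only. The deletion, the injected drug, the animals and the capture cannot be told apart. Uhrf1 itself, the targeted gene, held 4 listed regions. Tags at that locus count both DNA copies and methylation, so they do not check the labels.

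At imprinted loci, differential methylation of a control region on the maternal or paternal copy decides which copy is expressed. These marks are set in the germ line and are copied at each cell division, when UHRF1 recognises hemimethylated CpG and recruits the maintenance methyltransferase DNMT1. The zinc finger protein ZFP57 binds the methylated hexamer TGCCGC at many control regions, and CTCF binds the unmethylated copy at some of them, such as the one upstream of H19. Several imprinted genes, among them H19, Igf2, Dlk1, Meg3 and Peg3, are known in muscle stem cells or growing muscle.

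The sequences below are RefSeq promoter windows (GRCm38.p6, the patched release of mm10; 250 bases before to 50 bases after a start, 5′ to 3′, CpG in capitals). The first 6 are members' starts with a listed region within 2000 bp, and Airn is shown as a member whose body held none. CpG is the unit on which maintenance methylation and MBD2 capture act, and the windows show how unevenly it is spread over these starts.
Usp29 (chr7:6730333-6730632, + strand): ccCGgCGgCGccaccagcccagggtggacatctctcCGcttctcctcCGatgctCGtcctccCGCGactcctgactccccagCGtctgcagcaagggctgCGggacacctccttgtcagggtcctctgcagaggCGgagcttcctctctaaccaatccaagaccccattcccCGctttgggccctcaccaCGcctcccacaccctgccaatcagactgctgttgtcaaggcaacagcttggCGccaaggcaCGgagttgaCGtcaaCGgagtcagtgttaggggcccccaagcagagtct
Nnat (chr2:157559828-157560127, + strand): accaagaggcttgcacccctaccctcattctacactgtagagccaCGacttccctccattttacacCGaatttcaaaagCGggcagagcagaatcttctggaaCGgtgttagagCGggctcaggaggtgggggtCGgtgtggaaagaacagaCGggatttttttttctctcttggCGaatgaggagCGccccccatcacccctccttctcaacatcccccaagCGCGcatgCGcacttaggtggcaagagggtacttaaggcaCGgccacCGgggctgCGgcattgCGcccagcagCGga
Mest (chr6:30737800-30738099, + strand): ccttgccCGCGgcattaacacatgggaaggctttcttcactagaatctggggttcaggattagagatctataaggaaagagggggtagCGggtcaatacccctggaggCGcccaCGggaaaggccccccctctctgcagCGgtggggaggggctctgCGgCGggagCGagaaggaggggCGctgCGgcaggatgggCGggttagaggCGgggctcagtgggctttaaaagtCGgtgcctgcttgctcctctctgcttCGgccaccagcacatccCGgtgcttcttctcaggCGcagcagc
Kcnq1ot1 (chr7:143296498-143296797, - strand): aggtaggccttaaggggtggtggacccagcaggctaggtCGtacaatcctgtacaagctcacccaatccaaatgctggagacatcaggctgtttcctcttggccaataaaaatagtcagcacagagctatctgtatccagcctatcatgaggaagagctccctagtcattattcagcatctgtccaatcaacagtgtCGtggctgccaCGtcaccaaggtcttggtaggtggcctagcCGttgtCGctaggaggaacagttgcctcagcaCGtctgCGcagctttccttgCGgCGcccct
Zrsr1 (chr11:22971755-22972054, + strand): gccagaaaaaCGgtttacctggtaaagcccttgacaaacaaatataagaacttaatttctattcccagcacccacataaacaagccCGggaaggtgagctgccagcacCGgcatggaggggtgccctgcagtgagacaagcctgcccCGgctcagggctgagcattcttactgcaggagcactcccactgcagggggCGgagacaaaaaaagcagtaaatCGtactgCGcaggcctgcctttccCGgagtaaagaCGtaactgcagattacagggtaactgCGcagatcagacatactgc
Meg3 (chr12:109545148-109545447, + strand): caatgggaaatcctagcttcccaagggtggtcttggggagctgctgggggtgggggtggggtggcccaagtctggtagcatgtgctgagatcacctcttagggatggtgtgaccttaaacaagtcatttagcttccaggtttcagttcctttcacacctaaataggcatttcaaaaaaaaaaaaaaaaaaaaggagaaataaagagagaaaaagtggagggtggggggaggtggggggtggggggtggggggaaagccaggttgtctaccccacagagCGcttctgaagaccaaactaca
Airn (chr17:12741061-12741360, + strand): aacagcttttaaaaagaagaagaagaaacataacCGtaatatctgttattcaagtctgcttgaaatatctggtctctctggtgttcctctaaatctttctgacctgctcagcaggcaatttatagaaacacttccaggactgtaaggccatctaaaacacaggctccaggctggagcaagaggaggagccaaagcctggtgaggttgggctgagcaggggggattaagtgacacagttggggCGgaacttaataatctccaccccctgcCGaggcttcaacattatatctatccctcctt
The Usp29 and Mest windows held 17 CpG each, as did that of Nnat, while the Meg3 window held 1 and the Airn window 3. The hexamer TGCCGC, read on both strands, began at position 278 of the Nnat window and at positions 9 and 184 of the Mest window, and none of the other 5 windows shown held it. Over all members, 32 of 40 genes had a window in the table and 46 windows were read. Their median CpG count was 15 (quartiles 8.25 and 22.5), beside 7 over all 32851 windows (quartiles 3 and 20). The hexamer was in 11 member windows (23.9%) from 10 genes, beside 11.6% of all windows. It holds a CpG itself, and windows of like CpG count were not compared. The overlapping windows of the Mest starts 30738050 and 30738053 were both counted, with the same hexamers. A core CTCF motif was in 0 member windows, beside 0.0365% of all windows. Such matches describe letters only.

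Regions with less captured DNA after tamoxifen were found over 30 of the 40 imprinted genes (75%), beside 38.2% of all 34614 protein-coding and lncRNA genes. Long genes hold regions more often, so the members were also read within classes of length. Regions lay over 3 of 9 members under 10000 bp (19.1% of all genes of that length) and over 12 of 15 members from 10000 to under 50000 bp (43.8%). They lay over 8 of 8 members from 50000 to under 100000 bp (67.3%) and 7 of 8 longer ones (82.3%). By domain, 18 of 20 held a region. The domains spanned 5.87 to 563 kb, and no share over other stretches of like length was taken beside this count. A region lay within 2000 bp of either gene end in 14 members (35%), beside 17.7% of all genes. It lay within 2000 bp of a RefSeq start in 10 of the 32 members with one in the table (31.2%), beside 9.14% of 27025 genes. Neighbouring members share regions, 7 of the 69 being counted for more than 1 gene. These shares are descriptions, and no test was made on them.

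The fold is the authors' value at a region's summit, (oil tags + 1) over (scaled tamoxifen tags + 1). Tags are given unscaled, and a tamoxifen tag counts 0.763 of an oil tag after scaling. Over members, the median fold was 4.47 (quartiles 3.45 and 5.81), beside 4.61 (3.67 and 5.87) over the whole list. A fold of 4 or more was reached in 42 of 69 member regions (60.9%), beside 66.1% of all regions. All 17 regions between members reached it, with a median fold of 6.03 and medians of 35 oil and 6 tamoxifen tags. The member regions had medians of 53 and 15 tags. The regions between members came only from Dlk1-Mirg (8), Slc22a3-Airn (7) and Ascl2-Phlda2 (2). The median member region thus differed between the libraries about as much as the median listed region. Those between members had higher folds on fewer tags, and a region with few tags is listed only at a higher fold. The difference between these groups was not tested.

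**Figure D1:**
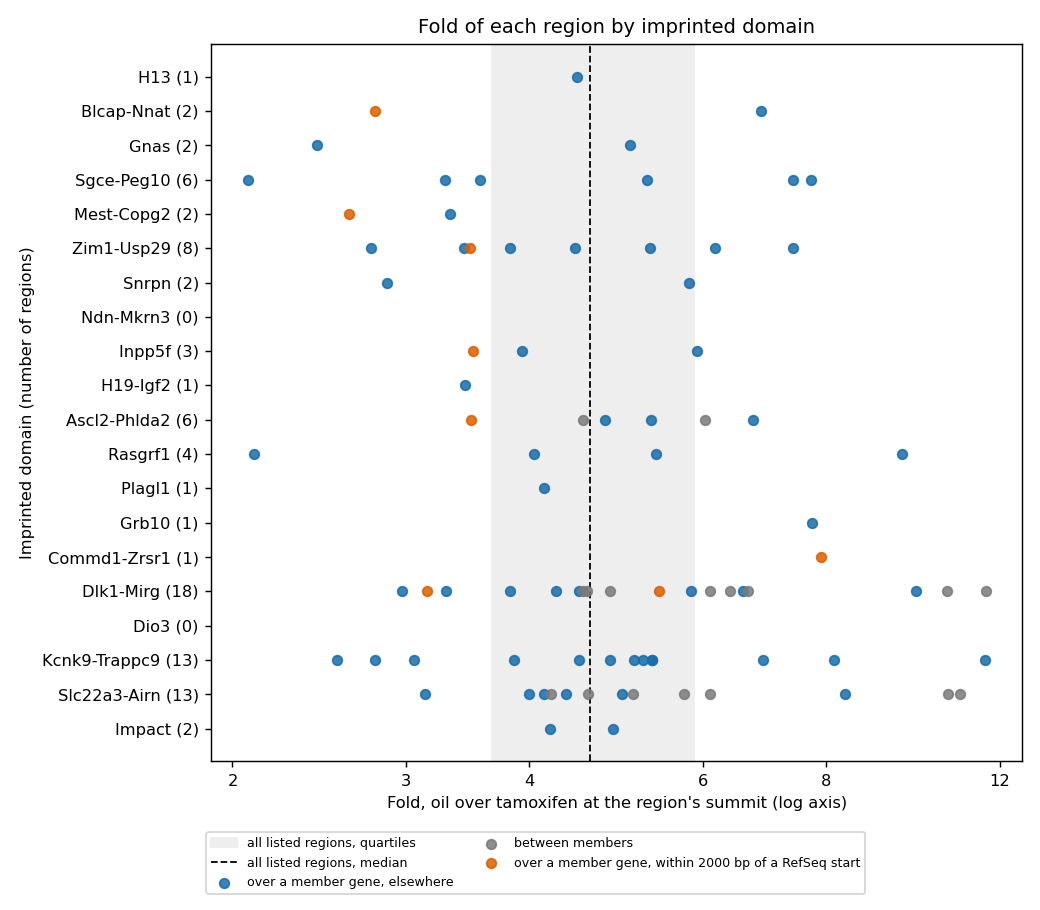
Each point is 1 of the 86 regions, placed by its fold (oil over tamoxifen, log axis) in its imprinted domain, with the number of regions in brackets. Orange points lie within 2000 bp of a member's listed RefSeq start (8 members have none listed), blue points elsewhere over members and grey points between members; the dashed line and grey band are the median (4.61) and quartiles of the whole list, and 6 of the 8 orange points lie left of the band.

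At promoters known to be methylated on the maternal copy, regions were present at some and missing at others. Among 8 such members with a start in the table (named after their values were seen), 5 had a region within 2000 bp. They were Mest, Peg3, Kcnq1ot1, Zrsr1 and Nnat. The nearest region was 17712 bp from the listed start of Plagl1 and 31430 bp from that of Airn. The listed starts of Snrpn lay 23574 to 86898 bp from their nearest regions. These 8 are not a complete list, so 5 of 8 is no rate for such promoters. Members outside the list were not sorted by which of their starts is methylated on the maternal copy. Of them, Grb10 and Gnas had no region within 2000 bp of a listed start (nearest 63459 and 2376 bp). The 2376 bp is from the first Gnas start, and the other listed Gnas starts were 30031 bp or more from a region. Inpp5f had a region 1420 bp from its listed start, and whether that start is the imprinted one was not examined. A start with no region can be unchanged, higher in tamoxifen, unmethylated or thinly covered.

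The 8 member regions within 2000 bp of a listed start had a median fold of 3.49, beside 4.49 for the other 61 member regions. Over the whole list the 2484 regions within that distance of any start had a median of 4.67 and the rest 4.61. Of the 8, 2 reached 4-fold, at Dlk1 and at Zrsr1. The other 6 lay between 2.63 and 3.51. The 8 members with no listed start (H19, Peg10, Sgce, Kcnq1, Rtl1, Impact, Trappc9 and Kcnk9) can add none to the first group, so regions at their ends, such as that of 2.08-fold at Peg10, are among the 61. With both gene ends of these members counted as starts, 12 regions had a median of 3.49, of which 4 reached 4-fold, and the other 57 had one of 4.49. This split by distance was made after the values were seen and was not tested.

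Mest, which encodes a protein of the alpha/beta hydrolase fold family and is expressed from the paternal copy, had 1 region, on chromosome 6 from 30736371 to 30736602. It lies 1448 bp upstream of the start printed above. Its summit was covered by 162 tags in oil and 80 in tamoxifen, which gave 2.63-fold (exact 95% limits on the ratio of tags, 2.02 to 3.52). The tamoxifen library thus kept 37.7% of the oil signal, and only 4.76% of all listed regions had a lower fold. Copg2, a coatomer subunit gene whose end overlaps that of Mest, had 1 region inside the gene with 53 oil and 20 tamoxifen tags (fold 3.32). Both values of this domain lay under the lower quartile of the list.

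Peg10 and Sgce face each other on chromosome 6, Peg10 being a gene derived from a retrotransposon and Sgce the gene of epsilon-sarcoglycan, a muscle membrane protein. They had 3 and 5 regions, 2 of them shared at the facing ends. The region from 4747535 to 4747747, inside the left end of Peg10, was the heaviest of all domains, with 191 tags in oil and 120 in tamoxifen. Its fold of 2.08 (limits 1.65 to 2.64) was the lowest of the 86, and 47.9% of the oil signal was kept. Just to its left, the second shared region (4746382 to 4746586) was covered by 29 tags in oil and 4 in tamoxifen, which gave 7.41-fold (limits 3.34 to 37.2). The counting limits of these neighbouring regions do not overlap. A lightly covered region enters the list only at a higher fold than a heavy one, and the difference was not tested. Inside Sgce the folds were 3.57, 7.73 and 5.27, the last with 161 and 39 tags. A region inside Peg10 had 80 and 31 tags (fold 3.29).

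Peg3, a zinc finger gene, and Usp29, a gene of the ubiquitin protease family, are read in opposite directions from starts that lie close together, and the copy from the father is the active one. The region from 6730900 to 6731142 of chromosome 7 lies 317 bp inside Usp29 and 481 bp upstream of Peg3. Coverage was 37 tags in oil and 13 in tamoxifen, or 3.48-fold (limits 1.94 to 7.65). Peg3 held 3 more regions toward its other end, with folds of 3.43, 6.18 and 4.45. Usp29 held 3 more, of which the one from 6963722 to 6963936 (29 against 4 tags) had a fold of 7.41, the highest of the domain. The others had folds of 3.83 and 2.76. Zim1, a zinc finger gene next to Peg3, had 1 region, from 6677396 to 6678093, with 73 and 17 tags (fold 5.3). That region was the one with most oil tags in the domain.

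Nnat, the neuronatin gene, lies inside Blcap, and the promoter of Nnat is the imprinted one. The region from 157560679 to 157560959 of chromosome 2, 601 bp downstream of the Nnat start, had 55 tags in oil and 25 in tamoxifen (fold 2.79, limits 1.77 to 4.83). The other region, from 157557321 to 157557958 near the far end of Blcap, had 53 and 9 tags and a fold of 6.87 (limits 3.78 to 17.8). Oil tags were thus nearly alike at these regions, while the tamoxifen tags differed, and the limits overlap. The first kept 34.7% of the signal and the second 13%.

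Gnas encodes the stimulatory G protein alpha subunit and, from alternative starts, other imprinted transcripts. Its region from 174286696 to 174286957 of chromosome 2, 2376 bp downstream of the first start, had 178 tags in oil and 95 in tamoxifen (fold 2.44, limits 1.9 to 3.19). The region from 174296792 to 174297101 had 143 and 36 tags and a fold of 5.06 (limits 3.59 to 7.73). The nearest region to the other 3 listed starts of Gnas was 30031 bp away.

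Plagl1, a zinc finger transcription factor gene, had a single region inside the gene, from 13108544 to 13108983 of chromosome 10. The library from oil gave 177 tags and that from tamoxifen 55 (fold 4.14, limits 3.10 to 5.82). Snrpn, the gene of a spliceosomal Sm protein, spans 468 kb of chromosome 7 in the table and had 2 regions. They had 155 and 70 tags (60163799 to 60164046, fold 2.87, limits 2.18 to 3.91) and 89 and 19 tags (60273776 to 60274044, fold 5.81). Both also overlap the lncRNA Snhg14. At 4.24 regions per Mb this was the lowest density among the domains that held any region.

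Heavily covered regions had lower folds across the whole list too. The 2365 regions with 140 or more oil tags had a median fold of 3.62. The domains held 8 such regions (9.3% of 86, beside 6.03% of the list). Against those 2365, the folds at Peg10, Gnas (174286696), Mest and Snrpn (60163799) lay at the percentiles 6.09, 12.9, 18.8 and 25.7. The other 4, at Plagl1, Sgce, Gnas (174296792) and between Slc22a3 and Igf2r, lay at 66.5, 88.1, 85.8 and 78. The heavy regions of the domains thus fell on both sides of the list's median.

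**Figure D2:**
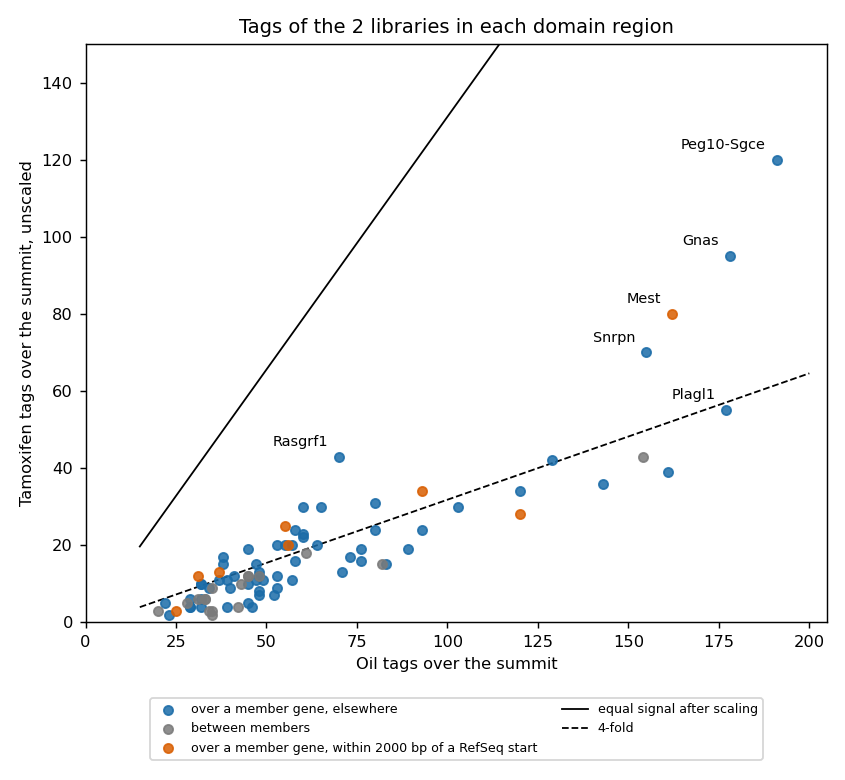
Each point is 1 of the 86 regions, with its oil tags (x axis) and its unscaled tamoxifen tags (y axis) over the summit; the solid line marks equal signal after scaling and the dashed line 4-fold. Orange points lie within 2000 bp of a member's start, blue points elsewhere over members and grey points between members. The labelled points (Peg10-Sgce, Gnas, Mest, Snrpn, Plagl1 and Rasgrf1) are the member regions with most tamoxifen tags. All of them but Plagl1 (fold 4.14) lie above the dashed line, as do all regions other than the 59 of 86 that reached 4-fold.

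Zrsr1 is a retrogene, related to splicing factor U2AF, that lies in an intron of Commd1 on chromosome 11. They share 1 region, from 22973685 to 22974087, which lies 1680 bp downstream of the Zrsr1 start and 819 bp upstream of an internal Commd1 start. Coverage was 25 tags in oil and 3 in tamoxifen, or 7.91-fold (limits 3.33 to 56.5). This was the highest fold of the 8 near starts, and it rests on few tags. Grb10, an adaptor of the insulin receptor, had 1 region, from 11930673 to 11930926 near its end far from the listed starts. Oil gave 23 tags there and tamoxifen 2 or fewer (fold 7.74, set by the genome mean of 2.1 scaled tags). The nearest region to either listed start of Grb10 was 63459 bp away. H13, which encodes signal peptide peptidase, had 1 region inside the gene on chromosome 2 (58 and 16 tags, fold 4.47).

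Inpp5f, an inositol phosphatase gene of chromosome 7, had 3 regions. The one from 128609739 to 128609945, 1420 bp upstream of the start, had 56 and 20 tags (fold 3.51, limits 2.17 to 6.46). A region inside the gene had 129 and 42 tags (128687355 to 128687707, fold 3.94), and one beyond its far end had 32 and 6 tags (128698278 to 128698525, fold 5.92). The latter also lies within 2000 bp of Mcmbp. Impact, which encodes a regulator of translation, had 2 regions inside the gene on chromosome 18, with 93 and 24 tags (12958329 to 12958583, fold 4.87) and 80 and 24 tags (12972512 to 12972889, fold 4.2). Rasgrf1, a Ras exchange factor gene of chromosome 9, had 4 regions, all inside the gene. They included one of the weakest, from 89994710 to 89994980 with 70 and 43 tags (fold 2.1, limits 1.44 to 3.20), and one of the stronger, from 89985774 to 89986015 with 45 and 5 tags (fold 9.56, limits 4.7 to 38.1). These limits do not overlap, but the regions also differ in oil tags, and the difference was not tested. Rasgrf1 is governed by a paternally methylated region upstream of the gene, and the nearest region upstream of its start was 211387 bp away.

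H19 and Igf2 are governed by a paternally methylated control region between them, next to H19. H19, a lncRNA of the maternal copy that also yields miR-675, had 1 region, from 142578243 to 142578620 of chromosome 7. It lies 97 bp beyond the right end of the gene. Oil gave 55 tags at the summit and tamoxifen 20 (fold 3.45, limits 2.13 to 6.35). Igf2, the growth factor gene, had none over its body, and the nearest region to any of its 4 listed starts was 78876 bp away. No other region lay in the 95.3 kb of this domain, so the stretch from H19 to Igf2 held none beyond the one beside H19.

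Kcnq1ot1 is a paternal antisense RNA inside the potassium channel gene Kcnq1, and its promoter is methylated on the maternal copy. The region from 143295084 to 143295346 of chromosome 7, 1201 bp inside the transcript, was covered by 93 tags in oil and 34 in tamoxifen. Its fold was 3.49 (limits 2.4 to 5.48), and it had the most oil tags of the domain. Kcnq1 held 3 more regions, with folds of 6.75 (143167589 to 143168026, 83 and 15 tags), 4.78 and 5.32. The first of them was the highest of the domain, with limits of 4.16 to 13.5. The imprinted genes on either side, Ascl2, Slc22a18 and Phlda2, which encode a helix-loop-helix factor, a transporter and a growth-limiting PH domain protein, had none. There were 2 regions between Kcnq1 and Slc22a18, with 45 and 12 tags (fold 4.53) and 28 and 5 tags (fold 6.03). The nearest region to the Ascl2 start was 187628 bp away.

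Igf2r encodes the receptor that clears IGF2, and Airn is the antisense RNA that starts inside it from a promoter methylated on the maternal copy. Igf2r had 3 regions on chromosome 17, all on the side of its far end. They had 64 and 20 tags (12682743 to 12683084, fold 4.0), 76 and 19 tags (12697458 to 12698074, fold 4.97) and 103 and 30 tags (12709497 to 12709881, fold 4.36). Airn had none, and from its start the nearest regions were 31430 bp upstream and 144027 bp downstream. The start of Igf2r was 59825 bp from the nearest region. The organic cation transporter gene Slc22a3 had 3 regions, of which one (12423159 to 12423425, 52 and 7 tags) had a fold of 8.36 and its neighbour (12423585 to 12423799, 38 and 15 tags) one of 3.14. Between Slc22a3 and Igf2r there were 7 regions. The heaviest had 154 and 43 tags (12536696 to 12537021, fold 4.59). The strongest was in or near Slc22a2 (12594259 to 12594481, 35 and 3 tags, fold 10.9, limits 4.82 to 77.7). The stretch from Slc22a3 up to Igf2r thus held 10 of the 13 regions of the domain.

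**Figure D3:**
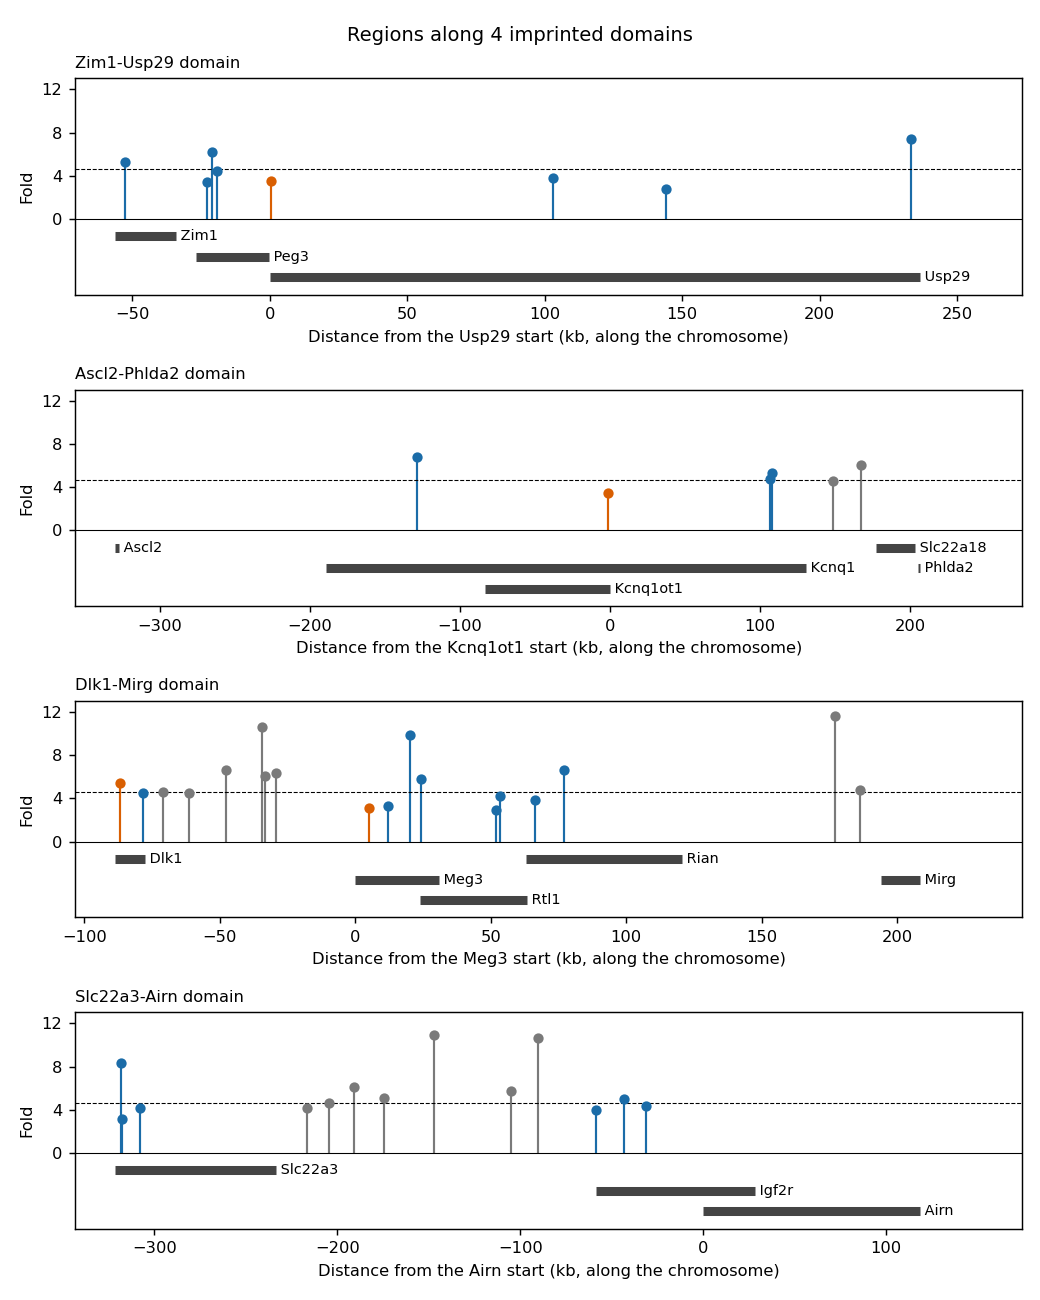
Stems mark each region's summit by its distance along the chromosome (kb) from the named start, with height as fold (oil over tamoxifen); bars below are gene bodies. Orange stems lie within 2000 bp of a member's start, blue stems elsewhere over members and grey stems between members, and the dashed line is the median of the whole list (4.61). The nearest region to the first Meg3 start is 5248 bp away, and none lies between the one 31430 bp before the Airn start and the end of Airn.

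The Dlk1-Mirg domain of chromosome 12 held 18 regions, the most of any domain. At 59.8 per Mb it was also among the densest, beside 15.8 per Mb over the autosomes. Its control region, methylated on the paternal copy, lies between Dlk1, a Notch-related membrane protein gene of the paternal copy, and Meg3, a lncRNA of the maternal copy. Dlk1 had 2 regions. The one from 109453878 to 109454299, 1055 bp downstream of the start, had 120 and 28 tags (fold 5.41, limits 3.7 to 8.81) and was the heaviest of the domain. The one from 109462485 to 109462703 at the far end had 48 and 13 tags (fold 4.49). Between Dlk1 and Meg3 there were 6 regions with 20 to 82 oil tags and folds of 4.53 to 10.6. The highest of them, from 109506430 to 109506686, had 42 and 4 tags (limits 5.0 to 52.9). The last, from 109511776 to 109511976, ends 29020 bp before the first Meg3 start, and that last stretch held none.

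Meg3 had 4 regions. The one from 109546244 to 109546543, 846 bp downstream of its second start, had 31 and 12 tags (fold 3.15, limits 1.69 to 7.24). The next had 60 and 23 tags (109552847 to 109553074, fold 3.29), and further in stood one of 39 and 4 tags (109560907 to 109561171, fold 9.88, limits 4.61 to 49.3). The last, with 76 and 16 tags (109564954 to 109565277, fold 5.83), is shared with Rtl1, a retrotransposon-derived gene of the paternal copy that is important in the placenta. The limits of the 4 regions of Meg3 overlap one another. Rian, the host of many small nucleolar RNAs, had 2 regions, with 32 and 10 tags (109607426 to 109607631, fold 3.83) and 71 and 13 tags (109617796 to 109618051, fold 6.6). Mirg, the host RNA of the distal miRNAs, had none. Between Rian and Mirg lay 2 regions. The one from 109718054 to 109718255 was covered by 35 tags in oil but by 2 or fewer in tamoxifen. The resulting 11.6-fold, set by the genome mean, was the highest of all 86. Dio3, the deiodinase gene at the distal end of the imprinted cluster, lies 530 kb from Mirg and was therefore a domain of its own; it had no region.

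The maternal RNAs of this domain carry a large miRNA cluster, and 57 hairpins of the RefSeq table lay in the domain. A region lay within 1000 bp of 11 of them and overlapped 2. No share over all hairpins of the genome was taken, so these counts describe places only and are no result about the cluster. The region over the Mir127 hairpin (109592874 to 109593144) lies in Rtl1, to which miR-127 is antisense, and had 45 and 19 tags (fold 2.97, limits 1.78 to 5.62). The next (109594145 to 109594488), 18 bp from Mir434, had 39 and 11 tags (fold 4.26). The Mir487b hairpin was overlapped by the region from 109727143 to 109727384, with 48 and 12 tags (fold 4.83), which also lies 247 bp from Mir381. The region in Rian of 6.6-fold ends 207 bp before Mir370. Mature miRNAs of these 5 hairpins, from RefSeq, are printed with the seed (bases 2 to 8) in capitals. They show which products of the cluster come from hairpins within 300 bp of a region, and for Mir487b only the 5p form is given.
mmu-miR-127-5p: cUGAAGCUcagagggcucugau
mmu-miR-127-3p: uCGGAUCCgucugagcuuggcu
mmu-miR-434-5p: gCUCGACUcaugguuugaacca
mmu-miR-434-3p: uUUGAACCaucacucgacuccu
mmu-miR-370-5p: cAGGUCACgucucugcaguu
mmu-miR-370-3p: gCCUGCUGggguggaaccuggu
mmu-miR-381-5p: aGCGAGGUugcccuuuguauauu
mmu-miR-381-3p: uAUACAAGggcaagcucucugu
mmu-miR-487b-5p: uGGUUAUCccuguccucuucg
All 9 printed seeds differ, so these 9 miRNAs form no shared seed family in this comparison. The list measures DNA, and no level of these RNAs was analysed here.

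Trappc9, a long gene of a vesicle trafficking complex, had 12 regions over 472 kb of chromosome 15, the most of any member. Oil tags ran from 32 to 120 and folds from 2.79 to 11.6. The strongest, from 72861935 to 72862181, had 46 and 4 tags (limits 5.51 to 57.7), above 99.2% of the list. The heaviest, from 72939964 to 72940286, had 120 and 34 tags (fold 4.49). Kcnk9, a potassium channel gene of the maternal copy in brain, had 1 region, with 60 and 30 tags (72512106 to 72512328, fold 2.55, limits 1.67 to 4.21). Peg13, the imprinted RNA inside Trappc9, had none over its body. Per 100 kb of extended gene body, Trappc9 held 2.52 regions, while Peg10 held 17.4, Nnat 15.5, H19 15.1, Blcap 14.3, Dlk1 13.5 and Peg3 13.1. Nnat and H19 are short genes whose rates rest on 1 region each.

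No region lay over Ndn, Magel2 or Mkrn3, genes of the paternal copy on the same chromosome as Snrpn, or between them. The nearest region was 42979 bp upstream of the Mkrn3 start, at the imprinted gene Peg12. Together with Dio3, Igf2, Ascl2, Slc22a18, Phlda2, Mirg and Airn, they were the 10 members with none. Of these 10, 6 were shorter than 10000 bp.

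The domains held more regions than the genome but no more than their surroundings. Their 3673 kb held 23.4 regions per Mb, and the 200 kb on each side, with overlapping flanks counted once, held 188 regions, or 23.8 per Mb, beside 15.8 over the autosomes. In 8 of 20 domains the domain was denser than its flanks, most of all in Blcap-Nnat (142.9 against 12.5 per Mb, from only 2 regions in 14 kb), Sgce-Peg10 (66.5 against 25) and Dlk1-Mirg (59.8 against 20). The flanks were denser at Mest-Copg2 (12 against 35), Grb10 (9.01 against 25) and Dio3 (0 against 32.5). CpG density and mappability were not compared.

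**Figure D4:**
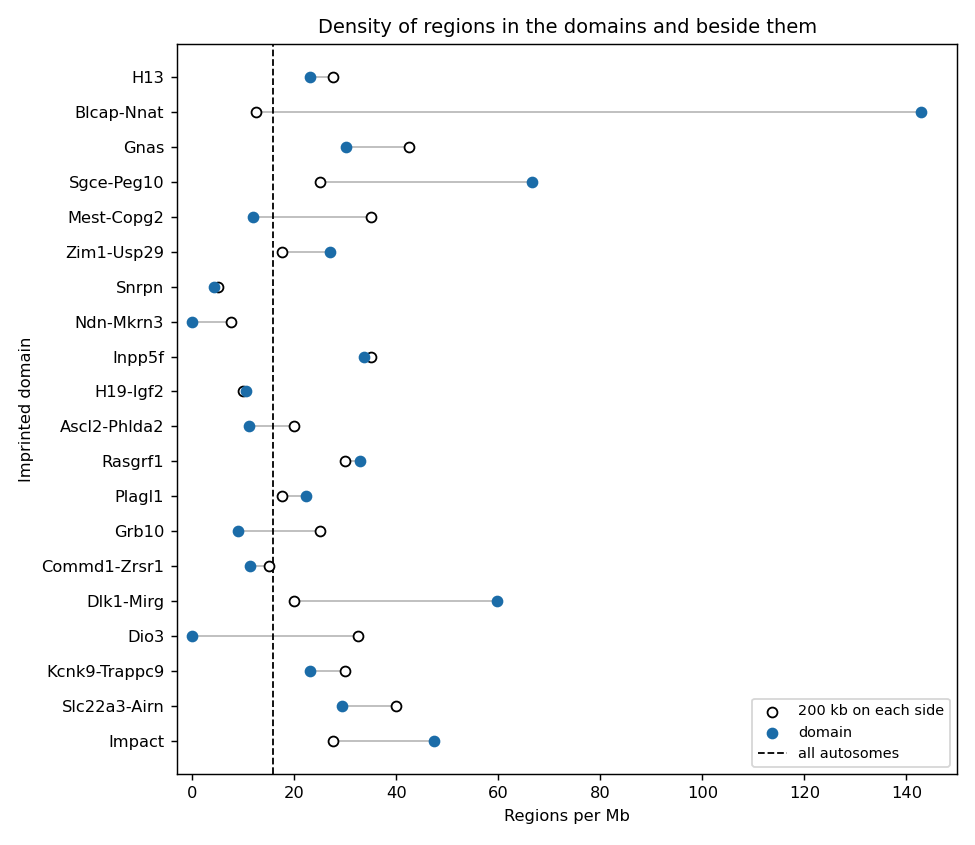
Filled points give the number of regions per Mb in each imprinted domain and open points that in the 200 kb on each side; the dashed line is the autosomal density (15.8 per Mb). Blcap-Nnat, Sgce-Peg10 and Dlk1-Mirg lie furthest right of their flanks, and 12 domains do not exceed theirs.

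The limits of the rule set which items were described. The widest gap joined was that of 174.7 kb between Slc22a3 and Igf2r, and the narrowest left apart was that of 300.01 kb between Igf2 and Ascl2. The furthest region still counted for a member was 1842 bp from Inpp5f (fold 5.92). The nearest one left out of any domain was 3025 bp from Inpp5f (83 and 22 tags, fold 4.73), followed by one 3287 bp from Dlk1 with 45 and 3 tags and a fold of 14.

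Other imprinted genes and the genes that maintain imprints were read in the same way. Of 49 other imprinted genes found in the table, 30 held a region (61.2%, beside 38.2% of all genes) and 6 did so near a gene end (12.2%, beside 17.7%). Those 6 were Pon3 (73 and 12 tags, fold 7.29), Casd1 (61 and 10 tags, fold 7.19), Dcn (fold 7.0), Ppp1r9a (fold 6.42), Chrac1 (143 and 37 tags, fold 4.93) and Peg12 (121 and 32 tags, fold 4.80). Casd1, Ppp1r9a and Pon3 are neighbours of Sgce and Peg10. Some of the 30 were counted through regions already described for the domains, so the lists are not independent. These were Zim3 and Slc22a2, through their only region, and in part Snhg14. Of 20 genes that maintain or read imprints, 15 held a region (75%) and 6 did so near an end (30%). They were Dnmt3a (fold 9.67), Dppa3 (fold 5.09), which protects maternal methylation in the zygote, Arid4b (39 and 9 tags, fold 5.09), Dnmt1 (fold 5.0), Ctcf (25 and 7 tags, fold 4.10) and its germline paralogue Ctcfl (139 and 48 tags, fold 3.72). These counts were not read by length.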

How the data were processed

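Per the file headers, the authors called regions with MACS2 2.2.6 from 1 oil alignment (treatment input) and 1 tamoxifen alignment (control input), with a q limit of 1e-04, tags of 130 bp extended to 201 bp, at most 1 tag per position and the larger library scaled down. Trim Galore, HISAT2 and mm10 are named in the submitters' processing notes. The deposited pileup is a signal value, the oil tags over a summit, and the deposited fold enrichment is a ratio. The headings of the p and q columns are damaged in the deposited file, and by their place they were read as −log10 p and −log10 q. No list of the opposite direction was analysed here.

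Tamoxifen tags were recovered from pileup and fold. They were whole within 0.02 tags in 38251 regions (97.5%), and the other 980 were at the genome mean. Recovery, limits and overlaps were tested on simulated data. Limits are exact Clopper-Pearson 95% limits of the scaled tag ratio. Genes came from the RefSeq table of GRCm38.p6, starts and strands from its promoter table, and overlap of 1 bp counted. Python 3.11.15, pandas 2.3.3 and SciPy 1.17.1 were used. All members were to be accounted for, with values for the highest fold and most tags per domain and regions near member ends. Members and lists were chosen with earlier results of these data known. The distance split around starts and the list of maternal promoters were made after seeing values. The motifs searched, a ZFP57 hexamer and a CTCF core, were fixed with the lists.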

Additional observations from a re-analysis of the deposited data

How the results depend on the processing

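Counts moved little with the processing. Over the alternatives tried, regions over members numbered 58 to 78 (69 as reported), members with a region 28 to 32 (30), members with one near an end 11 to 14 (14), regions in domains 75 to 92 (86) and domains with a region 17 to 19. None of these counts moved by more than 1.5 times. Joining members under 100 kb apart gave 22 domains and under 500 kb 19. A q limit of 1e-06 kept all 86 regions and one of 1e-10 kept 75. Those lost at 1e-10 included the regions at Nnat, at Peg3 and Usp29 and at the internal Meg3 start, the only region of Kcnk9 and the 2.10-fold region of Rasgrf1. With unscaled tamoxifen tags the median fold of member regions was 3.5 over 66 regions, beside the reported 4.47 over 69, since each tamoxifen tag then counts in full. In that setting 83 regions stayed past the authors' limit. The 3 lost were those of 2.10-fold in Rasgrf1, 3.15-fold in Meg3 and 2.79-fold in Trappc9. The median fold of regions near starts ran from 2.71 (unscaled) to 3.51. Leaving out replicates was not possible with 1 library a group, and no paired analysis was possible because each group holds 1 library. Depth limits the folds that rest on few tags, such as those at Zrsr1 and Grb10.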
